A study of Aspergillus nidulans with 24 samples.

Results

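Of 10631 genes measured in the filamentous fungus Aspergillus nidulans, 104 (0.978%) rose between 2 h and 8 h in maltose medium in the parental strain A773. In each of 3 recombinant strains derived from it, they fell or rose by less than a set limit. The members were chosen on mean log2(FPKM + 1) per strain and time, where FPKM is the number of fragments scaled for gene length and library total. A gene was kept when its mean at 8 h was at least 1.2 above that at 2 h in A773 and less than 0.5 above it in each of AbfA, BglC and 1542. The choice therefore used the change with time in all 4 strains, and those changes are given here as a description, with no test.

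Mycelium of each strain was grown with 1% glucose and then kept for 2 h or 8 h in minimal medium with 2% maltose and 250 mM HEPES at 37 °C, which turned on the promoter of the introduced gene. A773 carries pyrG89, wA3 and pyroA4, although its libraries are described as wild type. AbfA makes a heterologous alpha-arabinofuranosidase of family GH51, BglC a beta-glucosidase of family GH3, and 1542 a thermophilic mannanase of family GH5. With 3 biological replicates for every strain and time there were 8 groups and 24 libraries. Pyridoxine and uracil with uridine were given where required, but the strain that received each is not named. The number of clones behind each recombinant strain is not given either. A773 thus differed from all 3 recombinant strains by transformation, by the pyrG marker and possibly by supplements, and with these groups such differences and that of a foreign protein cannot be told apart.

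A. nidulans is a model for gene regulation in filamentous fungi and a host for making enzymes of other species. When glucose is replaced by a less repressing carbon source, carbon catabolite repression can ease and transcripts can shift over the following hours. Whether it eased in these maltose cultures was not tested. Genes for secondary metabolites, such as pigments and toxins, often lie side by side in clusters that are transcribed together, and many stay silent until growth slows or the culture is stressed.

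The libraries held 7140191 to 32310203 reads in genes, so that 1 read in a coding sequence of 1 kb stood for 0.031 to 0.14 FPKM. The introduced genes lay between 695.5 and 9177 FPKM in their own strains and at most at 1.98 FPKM elsewhere. The pyrG gene (AN6157) of pyrimidine synthesis held 61.6 to 75.4 FPKM in A773 and 154 to 1169 FPKM in the recombinant strains. A culture of mycelium can also hold conidiophores and conidia, and 9 of their markers were summed as a check. The sum in A773 was 1491, 2029 and 4151 FPKM (lowest, median and highest) at 2 h and 239, 271 and 272 FPKM at 8 h. AbfA went from 1316, 1632 and 1642 FPKM to 1970, 3265 and 3788 FPKM, BglC from 135, 428 and 2684 FPKM to 85.6, 225 and 1516 FPKM, and 1542 from 811, 1569 and 1716 FPKM to 592, 751 and 796 FPKM. By group mean, the markers rodA (1476 FPKM) and ivoB (743 FPKM) made up most of the sum in A773 at 2 h. In AbfA rodA rose from 747.5 to 2342 FPKM, while brlA fell from 131 to 93.5 FPKM and ivoB from 483 to 307 FPKM. The other markers also rose in AbfA. None of the 9 was under 1 FPKM in all 3 libraries of a group, except 1 marker in A773 at 8 h. These markers moved in A773 opposite to the 104 genes, and their part in the result was not tested. In such bulk RNA, fewer cells of a type and less RNA per cell cannot be told apart.

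In A773, 601 genes rose by at least 1.2, and the 104 were 17.3% of them. The same rule turned to each recombinant strain found 19 genes rising only in AbfA (11.7% of 163), 24 only in BglC (9.52% of 252) and 2 only in 1542 (2.13% of 94). Falling by as much only in A773 were 37 genes, and 33 genes rose by at least 1.2 in all 4 strains. All 104 passed the filter of at least 1 FPKM in at least 3 libraries, which left 9201 genes for testing. Of the 104, 7 passed through the A773 8 h libraries alone (AN6446, AN5426, AN11171, AN6833, AN5465, AN2588 and AN5501).

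The 104 genes rose in A773 by a median of 1.59 on the log2(FPKM + 1) scale, from 1.21 to 5.03, against a median of 0.13 over the genes tested. Their median change was 0.07 in AbfA, 0.12 in BglC and −0.04 in 1542. These medians lay close to those of the genes tested, which were 0.05, 0.08 and −0.01. In all 3 recombinant strains the change was below 0 for 19 members. A fall of at least 0.5 was seen for 16 members in AbfA (15.4%, against 10.4% of the genes tested) and 14 in BglC (13.5%, against 11.7%). In 1542 it was seen for 15 (14.4%, against 13.4%), and in all 3 together for none. The limit on rises in these strains can by itself increase such shares, and nothing is read from them. The 3 A773 libraries at 8 h lay above the 3 at 2 h for 104 of 104 members, and for 36.4% of the genes tested. That count follows from the choice and is no finding.

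The recombinant strains mostly held the members at levels between the parental ones, and these levels are among the values used to choose the members. The median member stood at a log2 level of 2.63 in A773 at 2 h and 4.62 at 8 h. In AbfA it stood at 3.63 and 3.79, in BglC at 2.81 and 2.94, and in 1542 at 3.28 and 3.22. On a scale from 0% at the A773 2 h mean to 100% at its 8 h mean, the mean of the recombinant groups lay at 30.5% for the median member. It was above 100% for 6 members and below 0% for 5. At 2 h AbfA stood at least 0.5 above A773 for 69 members, 1542 for 56 and BglC for 39. At 8 h AbfA stood at least 0.5 below A773 for 83, BglC for 93 and 1542 for 90. The median differences from A773 at 2 h were 0.80 in AbfA, 0.32 in BglC and 0.55 in 1542, and at 8 h they were −0.97, −1.35 and −1.18. Over the genes tested the same medians were 0.04, −0.10 and 0.05 at 2 h and −0.06, −0.14 and −0.09 at 8 h. All 3 recombinant strains were at least 0.5 below A773 at 8 h for 73 members, and all 3 were at least 0.5 above it at 2 h for 20. A large rise in A773 favours low parental levels at 2 h and high ones at 8 h. These counts and medians are therefore a description, and nothing is read from them.

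The members fell into 4 shapes by where A773 stood apart, taking a log2 difference of 0.5 as apart. In 21, called late-high, A773 stood at least that far above each recombinant strain at 8 h and less than that below any of them at 2 h. In 4, called early-low, A773 was at least that far below each of them at 2 h and less than that above any at 8 h. In 8 A773 was apart from each at both times, below at 2 h and above at 8 h. The other 71 were mixed, with the recombinant strains apart from A773 in differing numbers. The libraries of A773 at 8 h lay above all 18 recombinant libraries for 55 members, and for 8.29% of the genes tested. The A773 libraries at 2 h lay below all 18 for 8 members, and for 2% of the genes tested. Both counts rest on values used to choose the members, and nothing is read from them.

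**Figure D1:**
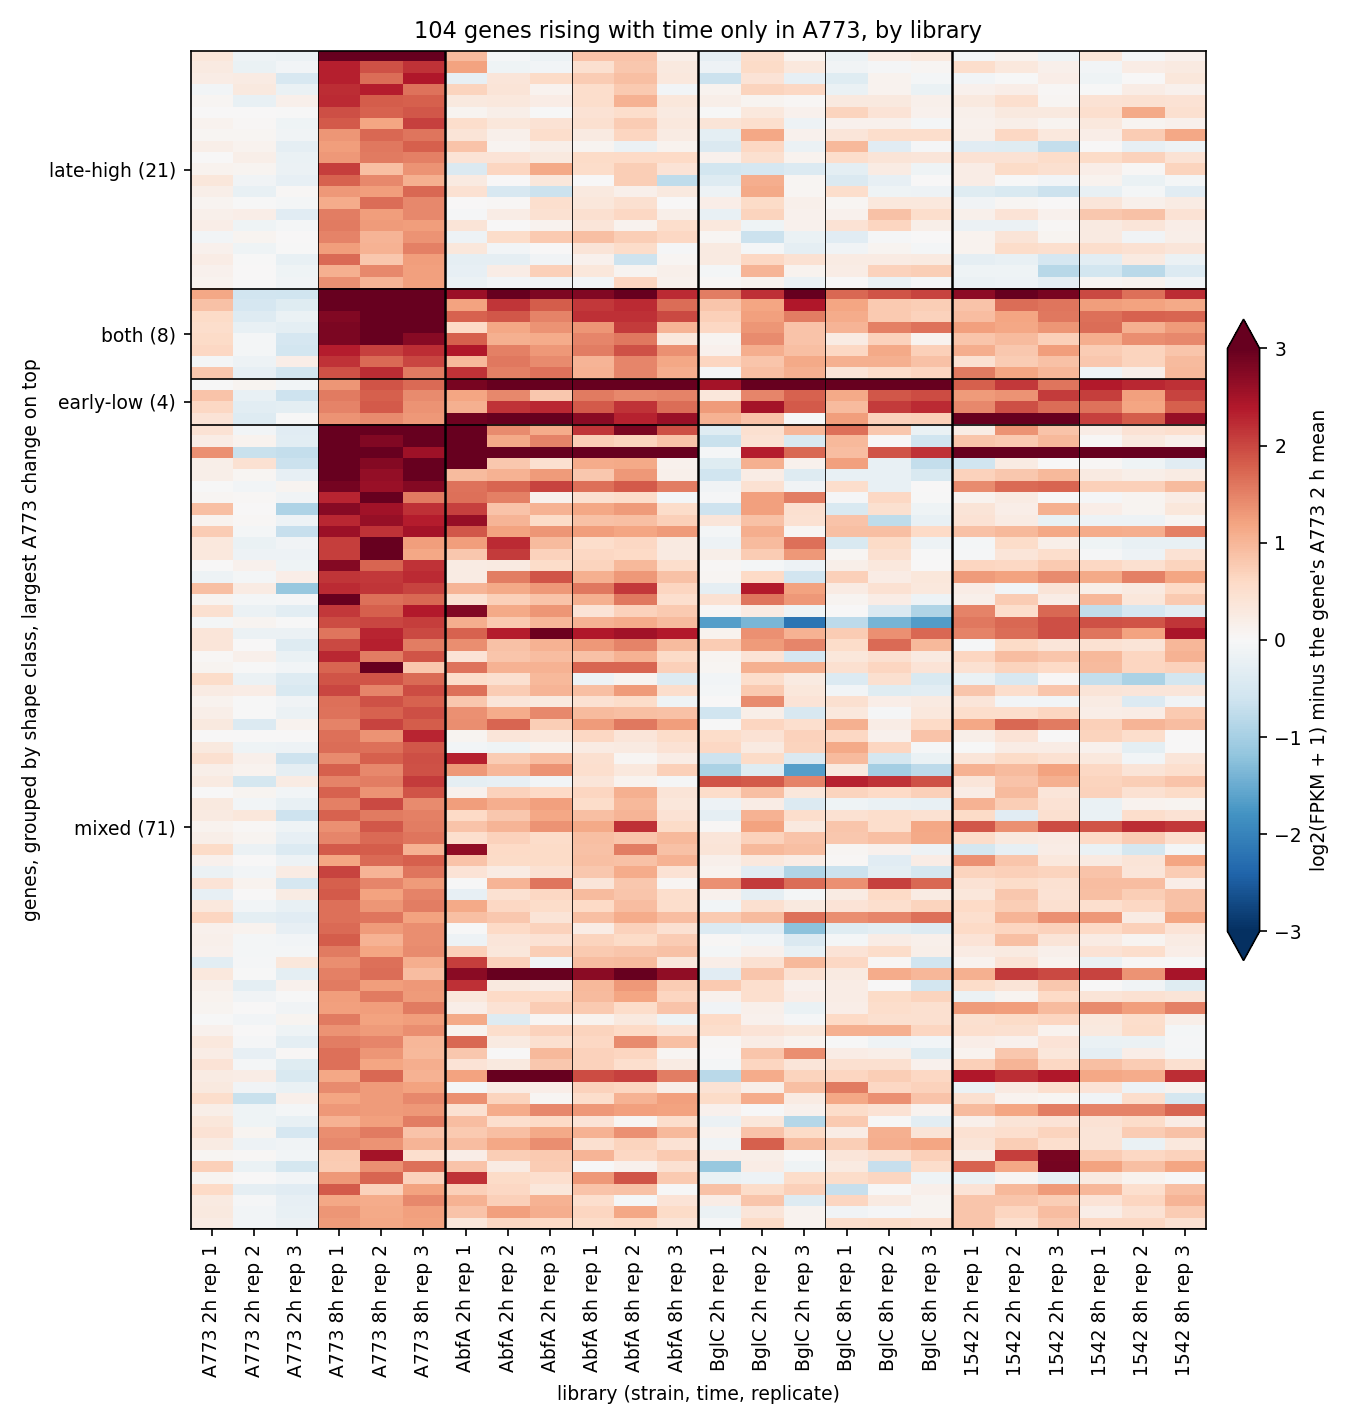
Level of each of the 104 genes in each of 24 libraries, as log2(FPKM + 1) minus the mean of the gene's A773 2 h libraries, with blue below and red above it and the colour limits at −3 and 3. Rows are genes in 4 shape classes of 21, 8, 4 and 71 genes, and columns are libraries. The A773 8 h columns are red throughout, and the darkest colours stand for 3 or more.

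**Figure D2:**
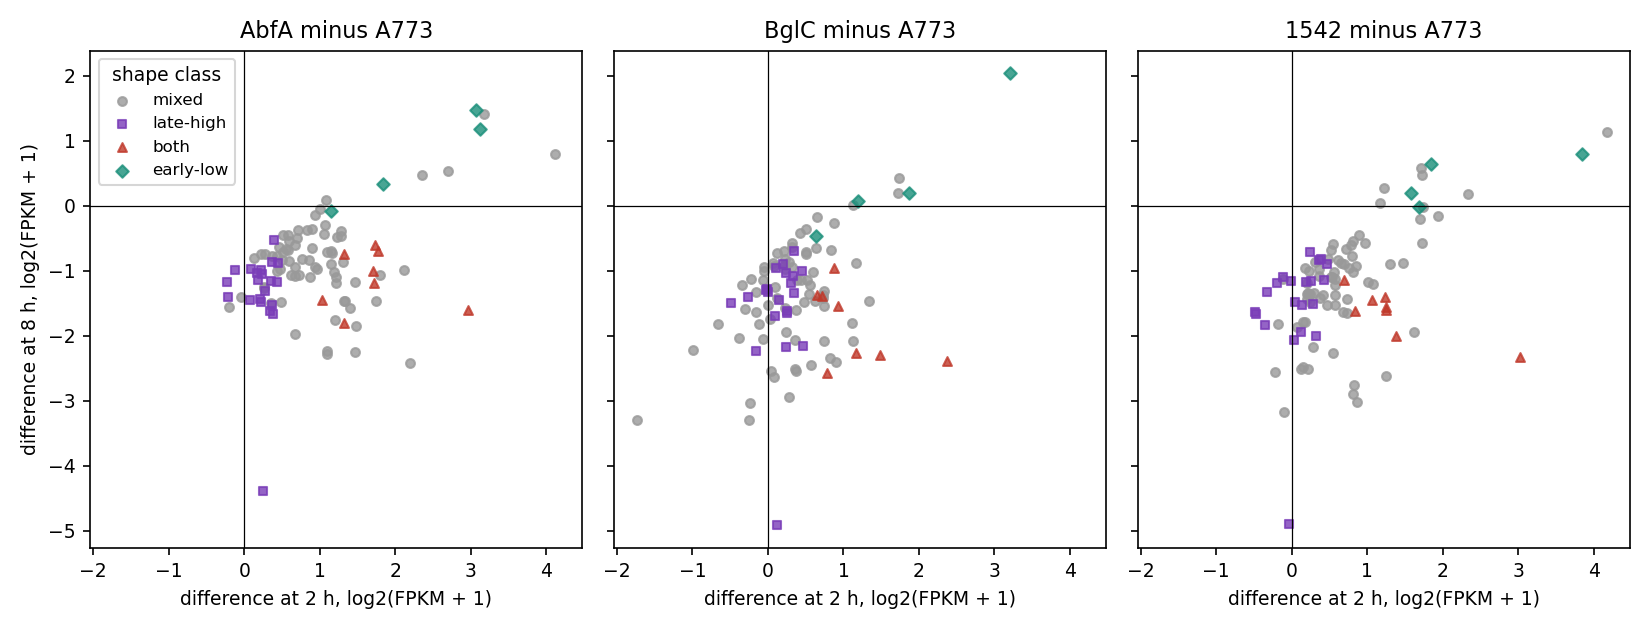
Difference of each recombinant strain from A773 at 2 h (horizontal axis) and at 8 h (vertical axis), in log2(FPKM + 1), for the 104 genes, 1 point per gene, with symbols for the shape class. Most points lie to the lower right of the origin, at median differences of 0.80 and −0.97 for AbfA, 0.32 and −1.35 for BglC, and 0.55 and −1.18 for 1542. The values shown are among those used to choose the members.

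AN2573 led the late-high genes and the whole set. Its A773 libraries held 0.524, 0.0808 and 0.0707 FPKM at 2 h and 39.6, 49.6 and 29.0 FPKM at 8 h, a log2 change of 5.03. The 18 recombinant libraries ran from 0 to 1.32 FPKM, with a median of 0.308 FPKM. Outside the A773 8 h libraries these levels came from 0 to 35 reads per library, and the A773 8 h libraries did not overlap with any other. Without AbfA 2 h replicate 1 or AbfA 8 h replicate 3 the change in AbfA reached 0.5 and the gene left the set, although its highest AbfA library held 1.32 FPKM. AN5655, of the mixed class and named after its values were seen, held 4.73, 5.22 and 4.18 FPKM in A773 at 2 h and 37.7, 17.96 and 24.6 FPKM at 8 h. Its recombinant libraries lay from 4.09 to 10.2 FPKM, all below those of A773 at 8 h.

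gmdB (AN2879) held 9.11, 8.40 and 6.56 FPKM in A773 at 2 h and 80.7, 55.0 and 78.1 FPKM at 8 h, a change of 2.99. The AbfA libraries held 16.4, 17.4 and 20.7 FPKM at 2 h and 14.6, 21.1 and 8.98 FPKM at 8 h. Those of BglC held 4.94, 9.42 and 5.82 FPKM, then 6.62, 6.70 and 5.55 FPKM. In 1542 they held 13.4, 14.7 and 16.6 FPKM, then 9.88, 9.15 and 9.61 FPKM. All 18 recombinant libraries thus lay below the A773 8 h libraries, and BglC lay at or near the parental 2 h level.

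Among the genes that were low early and high late in A773, AN9315 changed most. Its A773 libraries held 14.7, 3.73 and 3.64 FPKM at 2 h and 129, 185 and 102 FPKM at 8 h, a change of 4.27. The recombinant libraries ran from 19.3 to 80.5 FPKM, above every 2 h and below every 8 h library of A773. AN5831 was far more abundant, at 138, 53.0 and 57.9 FPKM in A773 at 2 h and 731, 732 and 645 FPKM at 8 h. The recombinant libraries lay between 125.5 and 402 FPKM, and the lowest of them were below A773 2 h replicate 1. AN3491, AN8478, AN5567, AN8634 and AN9131 had the same shape. In AN3491 the means were 0.869 ± 0.637 and 12.8 ± 1.00 FPKM in A773 (SD, n = 3), and 2.52 to 4.30 FPKM in the 6 recombinant groups. In AN8478 they were 1.49 ± 0.948 and 17.2 ± 3.35 FPKM, and 2.08 to 5.09 FPKM.

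AN7913 completed this class and was the 1 member found in any of the gene lists used, that of the orsellinic acid cluster, which makes a polyketide. Its A773 libraries held 31.4, 15.6 and 18 FPKM at 2 h and 147, 212 and 212 FPKM at 8 h. The AbfA libraries held 72.8, 77.5 and 60.3 FPKM at 2 h and 97.9, 98.1 and 84.5 FPKM at 8 h. Those of BglC held 34.7, 49.7 and 62.4 FPKM, then 46.1, 36.1 and 33.8 FPKM. In 1542 they held 40.4, 48.1 and 63.8 FPKM, then 67.3, 72.5 and 71.9 FPKM. The gene rose by 3.12 in A773 and by 0.41 in AbfA and 0.49 in 1542, just under the limit, and changed by −0.30 in BglC.

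**Figure D3:**
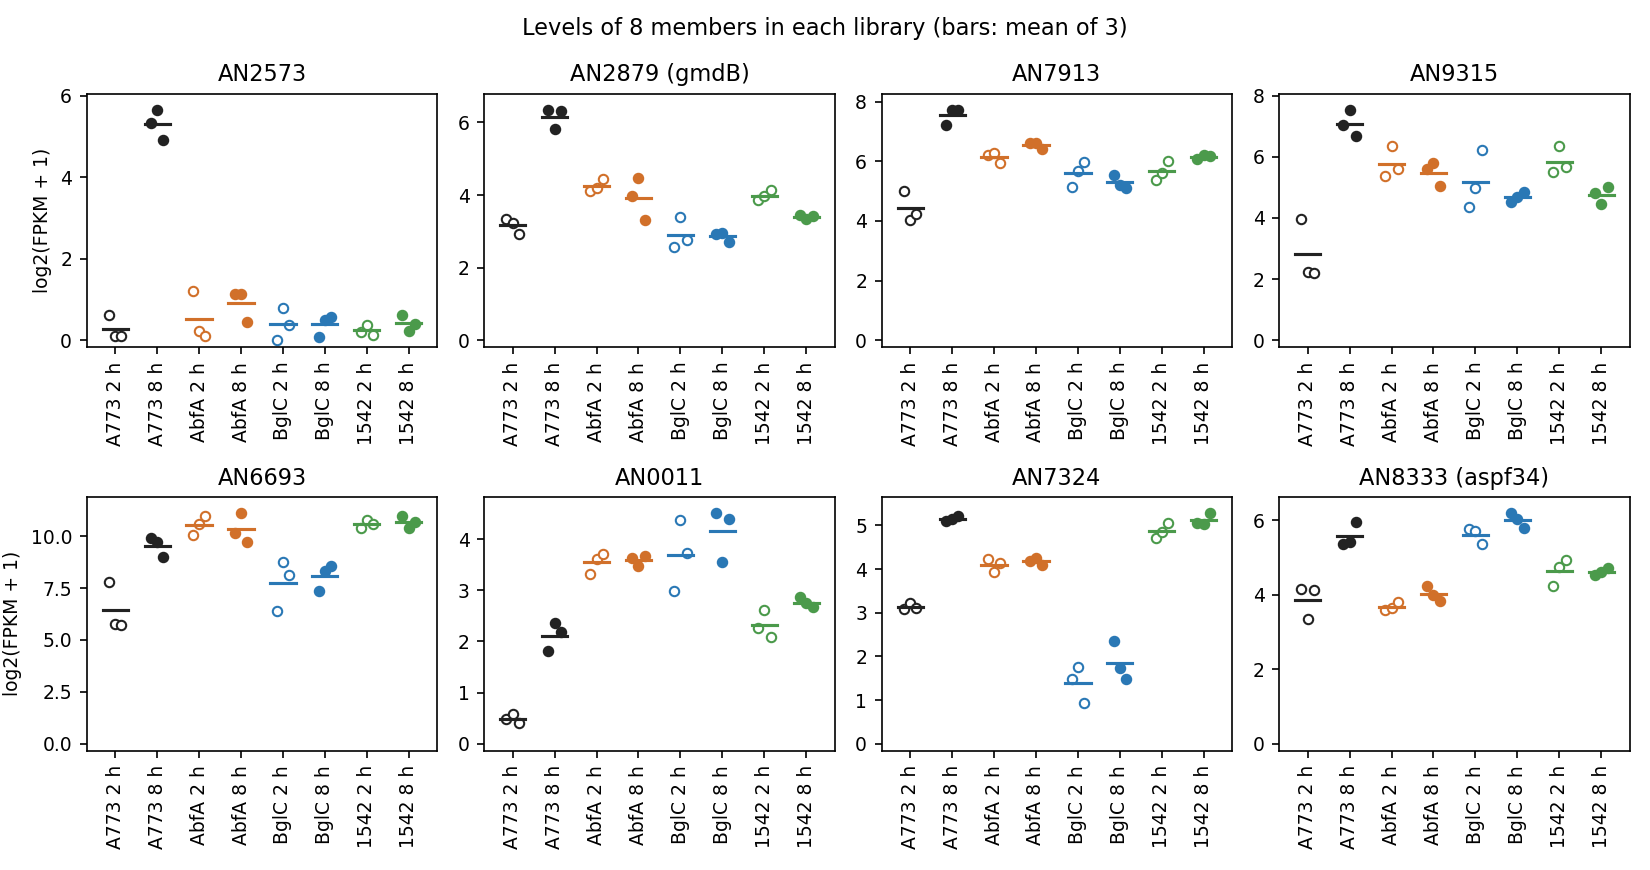
Levels of 8 members in each of the 24 libraries, as log2(FPKM + 1), with open points at 2 h, filled points at 8 h and a bar at the mean of each group of 3. AN2573 is high in A773 at 8 h alone, AN6693 and AN0011 stand above the parental 8 h level in at least 1 recombinant strain, AN7324 is lowest in BglC, and aspf34 is highest in BglC.

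In 6 members the mean of the recombinant groups stood above the parental 8 h level: AN6693, AN0011, AN7273, AN1615, AN8777 and AN3641. This did not hold for each strain by itself. For AN8777 and AN3641 the BglC libraries at 8 h lay below those of A773 at 8 h, and for AN1615 they overlapped with them. AN6693 was the most abundant member, at 222, 53.4 and 51.3 FPKM in A773 at 2 h and 972, 847 and 503.5 FPKM at 8 h. AbfA held 1052, 1544 and 2039 FPKM at 2 h and 1161, 2219 and 840 FPKM at 8 h. BglC held 82.2, 438 and 281 FPKM, then 163, 317 and 383 FPKM. In 1542 the libraries held 1372, 1790 and 1535 FPKM, then 1998, 1337 and 1675 FPKM. AbfA and 1542 thus stood at both times within or above the range that A773 reached at 8 h, whereas all 6 BglC libraries were below it.

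AN0011, of the early-low class, held 0.396, 0.489 and 0.321 FPKM in A773 at 2 h and 2.50, 4.14 and 3.51 FPKM at 8 h. Its libraries lay from 9.002 to 12.1 FPKM in AbfA, from 6.93 to 21.8 FPKM in BglC and from 3.27 to 6.27 FPKM in 1542. The A773 8 h libraries thus overlapped with those of 1542 and lay below all those of AbfA and BglC. AN8777 held 5.64, 2.81 and 3.97 FPKM in A773 at 2 h and 11.7, 12.5 and 11.3 FPKM at 8 h. In 1542 it went from 68.3, 85.0 and 60.8 FPKM to 19.7, 16.5 and 29.5 FPKM, a change of −1.69. AN7273 held 42.7 ± 17.3 FPKM in A773 at 2 h and 123 ± 22.8 FPKM at 8 h (SD, n = 3), and its recombinant group means lay between 122 and 160 FPKM. AN8068 was the remaining early-low gene, with 15.7 ± 9.52 and 44.6 ± 6.05 FPKM in A773 and recombinant means from 33.1 to 52.7 FPKM.

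The other members with the highest A773 8 h levels were AN3218, AN2977, AN9001 and AN10592. AN3218 changed by 3.17 in A773 and held 55.0, 50.9 and 37.4 FPKM in A773 at 2 h and 445, 329 and 555 FPKM at 8 h. AbfA 2 h replicate 1 held 764 FPKM of it, against 105 and 133 FPKM in the other AbfA 2 h libraries. AN2977 went from 217 ± 35.3 to 504 ± 20.9 FPKM in A773, and all 18 recombinant libraries lay between 208 and 381 FPKM. AN9001 went from 208 ± 44.9 to 503 ± 86.9 FPKM. AN10592 held 745, 290 and 307 FPKM in A773 at 8 h, so that its mean rested in part on replicate 1, and 91.8 ± 5.33 FPKM at 2 h.

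Only 4 members had a symbol in the names table (3.85%, against 7.32% of the genes measured). Besides gmdB these were tpcA, gliT and aspf34. gliT (AN3963) bears the name of an Aspergillus fumigatus oxidoreductase that protects the cell from the toxin gliotoxin. Its A773 libraries held 4.43, 2.33 and 3.77 FPKM at 2 h and 11.3, 16.9 and 14.5 FPKM at 8 h, a change of 1.77. AbfA held 6.32 to 13.8 FPKM at both times, 1542 6.29 to 13.5 FPKM, and BglC 3.38 to 8.31 FPKM. The AbfA and 1542 levels thus reached into the range of the parental 8 h libraries, and the BglC levels did not.

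aspf34 (AN8333) is named after the A. fumigatus allergen Asp f 34, a cell wall protein. A773 held 16.7, 9.16 and 16.3 FPKM at 2 h and 40.01, 41.4 and 61.1 FPKM at 8 h, a change of 1.71. BglC already held 52.9, 51.0 and 40.3 FPKM at 2 h and held 71.9, 64.7 and 54.1 FPKM at 8 h. AbfA stayed at 11.1 to 17.9 FPKM and 1542 at 17.7 to 29.5 FPKM. The BglC libraries thus lay at or above the late parental level, and those of AbfA near the early one.

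The members as a whole were less abundant than other genes, with a median of the mean over 24 libraries of 11.2 FPKM, against 19.9 FPKM over all genes measured. Their median coding length was 1130 bases, against 1248. Of the 104 members 101 could be placed in the gene order of the RefSeq assembly ASM1142v1, and 16 of these (15.8%) lay within 1 intervening gene of another member, in 7 runs. Among the placed genes that fell only in A773, 9 of 36 did so. The share was 12.9% among those rising in all 4 strains, 21.1% among those rising only in AbfA and 21.7% among those rising only in BglC. Among those rising only in 1542 it was 0 of 2. Such neighbours are more frequent in larger sets, so shares of sets of these differing sizes cannot be compared, and nothing is read from them.

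The longest run held AN6449, tpcA (AN6447), AN6446 and AN6444. tpcA has the name of a gene of the A. fumigatus cluster for trypacidin, a spore toxin. Its A773 libraries held 0.435, 0.0448 and 0.0391 FPKM at 2 h and 3.91, 12.6 and 1.58 FPKM at 8 h, a change of 2.26. AbfA held 1.05, 3.95 and 0.862 FPKM at 2 h and 0.795, 0.758 and 0.402 FPKM at 8 h. BglC held 0.305, 0.972 and 1.87 FPKM, then 0.208, 0.621 and 0.153 FPKM, and 1542 held at most 0.668 FPKM. The levels were low in all groups, and the highest AbfA and BglC libraries overlapped with the widely spread A773 8 h libraries.

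The neighbours in the run were also low at 2 h and higher at 8 h in A773. AN6444 held 0.160, 0.149 and 0.0371 FPKM in A773 at 2 h and 4.47, 16.3 and 2.27 FPKM at 8 h. AN6449 held 1.01, 0.399 and 0.504 FPKM, then 5.85, 18.9 and 2.86 FPKM. The highest AbfA libraries, at 2.5 FPKM for AN6444 and 6.62 FPKM for AN6449, overlapped with those of A773 at 8 h, as did BglC 2 h replicate 3 for AN6449, at 4.10 FPKM. A773 8 h replicate 2 was the highest library for all 4 genes of the run, by at least 1 on the log2 scale for AN6444, AN6449 and tpcA. The changes in AbfA were −0.77 for AN6444, −1.01 for AN6449, −0.70 for tpcA and 0.02 for AN6446. Inside the run AN6445 changed by 1.25 in A773 but also by 0.51 in AbfA, which placed it just outside the set, and AN6448 changed by 0.25 in A773. Beside it AN6450 changed by 1.81 in A773, 0.51 in AbfA, 0.67 in 1542 and −0.83 in BglC.

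**Figure D4:**
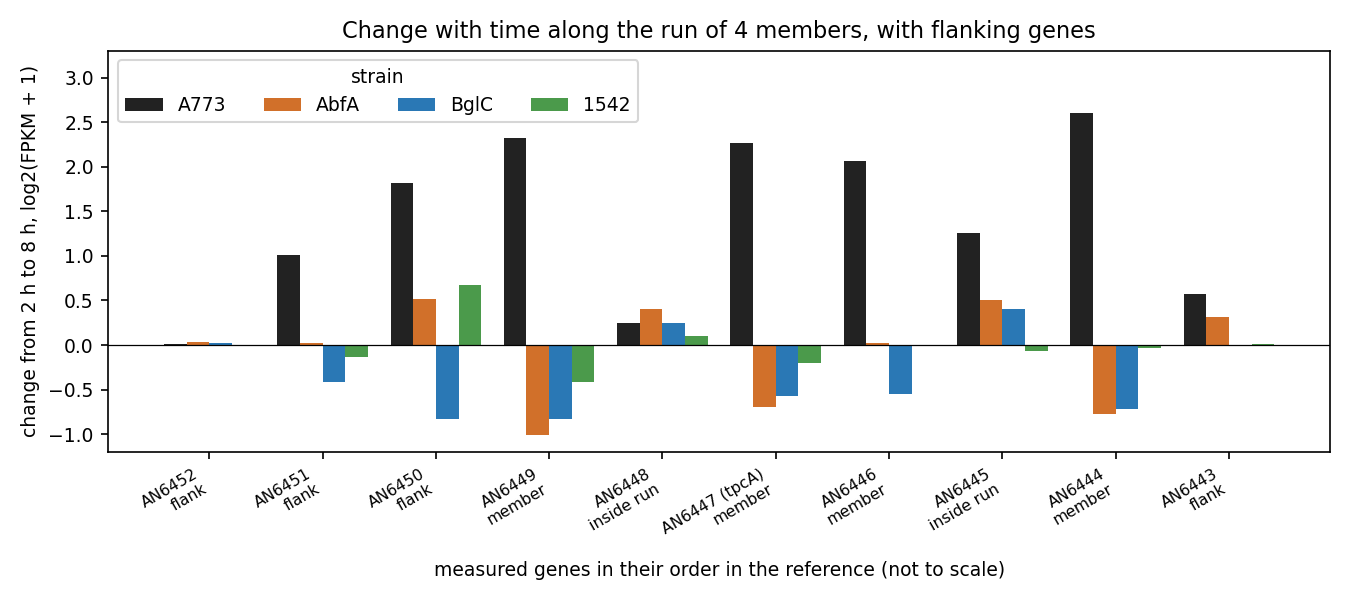
Change from 2 h to 8 h in log2(FPKM + 1) for the measured genes of the run from AN6449 to AN6444 and its flanks, in reference order and not to scale, with 1 bar per strain. The A773 bars of the 4 members stand between 2.06 and 2.60, and those of the recombinant strains between −1.01 and 0.02.

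The other 6 runs were pairs. AN9131 and AN9130, next to each other, rose by 1.90 and 1.64 in A773 and changed by −0.91 and −0.74 in 1542 and by −0.57 each in AbfA. AN7924 and AN7925 rose by 1.55 and 1.46, with all their recombinant changes between 0.03 and 0.34. AN3970, paired with AN10505, held 1.15 ± 0.123 FPKM in A773 at 2 h and 13.4 ± 1.31 FPKM at 8 h (SD, n = 3). Its means were 6.54 and 5.91 FPKM in AbfA, 5.62 and 2.74 FPKM in 1542 and 1.31 and 1.37 FPKM in BglC, so that BglC stayed near the early parental level. AN3286 with AN3285, AN5946 with AN5945, and AN7324 with AN7322 were the remaining pairs. The pairs were picked out after their values were seen.

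Of 24 gene lists with 158 measured genes, 23 held no member. The 1 member among 158 stands against 0.978% of all genes measured, and nothing is read from so small a count. The list of the orsellinic acid cluster had 5 of 5 genes past the limit of 1.2 in A773, at 3.12 to 4.77, but 4 of the 5 were also past 0.5 in 1542. In the dba cluster, of another polyketide, 8 of 9 genes were past it in A773, at 1.99 to 5.23, and these 8 changed by 1.37 to 1.83 in 1542 and by −1.71 to −0.10 in BglC. Of 5 nitrate assimilation genes 4 were past it in A773, at 2.29 to 5.17, and these changed by 0.99 to 2.00 in AbfA and by 0.91 to 2.36 in BglC. In 1542 the same 4 genes changed by −0.03 to 0.24. Of 7 genes of ethanol use 3 were past it in A773, at 1.64 to 3.70, and these changed by 1.204 to 2.37 in AbfA, 0.63 to 1.88 in BglC and −0.67 to 0.31 in 1542.

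The level of each member averaged over 2 h and 8 h was not itself used by the rule, and among the recombinant strains it was tested. It is independent of the change with time only where both times are equally variable. AbfA 2 h replicate 1 lay at least 1 above both other libraries of its group for 12.5% of members, against 1.90% of the genes tested. Such a library lowers the change in AbfA and raises its average, so counts against AbfA are not wholly free of the choice. The test was limma's moderated test on log2(FPKM + 1) with Benjamini-Hochberg adjustment over all 9201 genes, called at an adjusted p under 0.05. BglC differed from AbfA in 54 of 104 members, against 46.7% of all genes tested. Of these 50 were lower in BglC, against 31.9% of all genes tested, and 4 were higher, against 14.8%. The median difference was −0.45 for the members and −0.11 for the genes tested. The share called was thus close to the background, while the split between directions was more uneven than that of all genes. After median-of-ratios scaling between libraries 39 members were lower and 7 higher, whereas the higher share of calls over all genes moved from 31.7% to 49.1%. Without AbfA 2 h replicate 1 the counts were 44 lower and 4 higher.

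Strain 1542 differed from AbfA in 25 members, against 13.2% of all genes tested. It was lower in 20 (7.61% of all genes tested) and higher in 5 (5.64%), with a median difference of −0.26 against −0.02. Strain 1542 differed from BglC in 50 members, against 48.3% of all genes tested. It was higher in 35 (30.8%) and lower in 15 (17.5%), with medians of 0.14 and 0.09, which was close to the background in number and in median. After median-of-ratios scaling 27 were higher and 16 lower, and the higher share of calls over all genes moved from 63.7% to 49.7%. Of the 7 members that passed the filter through the A773 8 h libraries alone, AN6833 is counted in both comparisons with BglC and AN2588 in that of 1542 with AbfA. Without 1542 2 h replicate 3 the higher calls of 1542 over AbfA went from 5 to 3. Leaving out AbfA 2 h replicate 1 gave 19 lower and 5 higher calls of 1542 against AbfA. The share called over all genes was then 15.99%, and the higher share of those calls moved from 42.6% to 35.2%. At least 1 of these 3 comparisons was called for 75 members, against 62.3% of all genes tested.

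**Figure D5:**
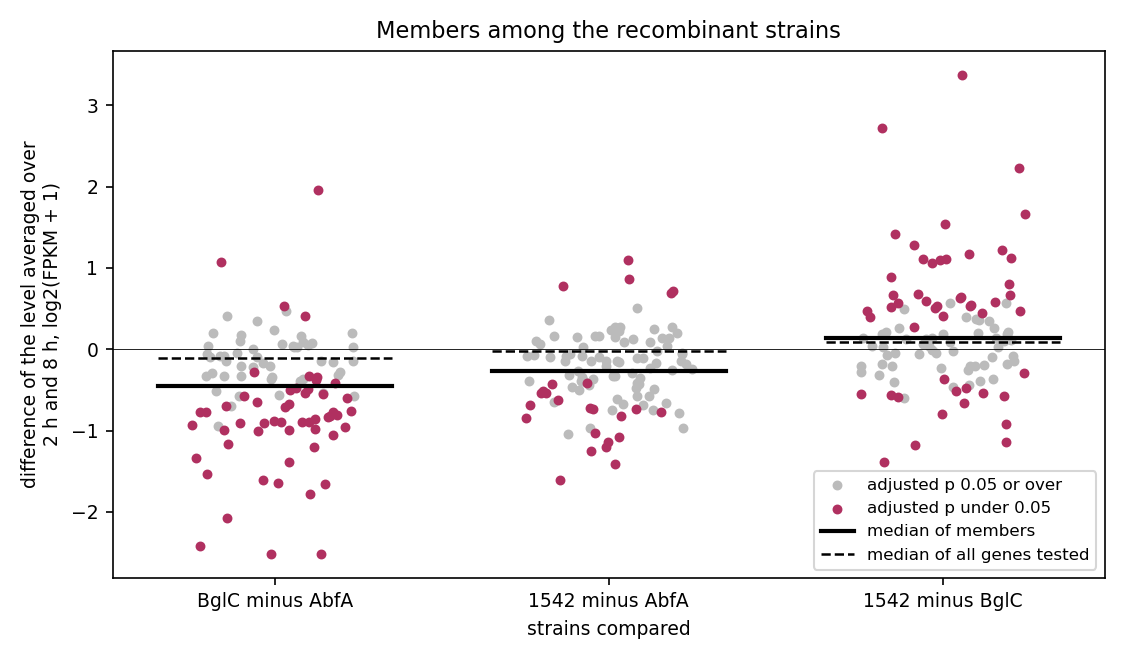
Difference in level averaged over 2 h and 8 h between pairs of recombinant strains, in log2(FPKM + 1), 1 point per member, coloured where limma's adjusted p was under 0.05. Solid bars are medians of the 104 members (−0.45, −0.26 and 0.14) and dashed bars those of all 9201 genes tested (−0.11, −0.02 and 0.09).

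AN7324, AN6693, AN8777, AN1615 and aspf34 had some of the largest called differences among the recombinant strains. AN7324 held 7.44, 8.29 and 7.69 FPKM in A773 at 2 h and 33.3, 34.2 and 35.9 FPKM at 8 h. It held 25.4 to 37.9 FPKM in 1542, 14.2 to 18.1 FPKM in AbfA and 0.915 to 4.12 FPKM in BglC. No library of these strains overlapped with one of another. The level in 1542 was above that in BglC by 3.38 ± 0.14 (SE, limma adjusted p = 5.9e-13) and above that in AbfA by 0.86 ± 0.14 (limma adjusted p = 0.00039).

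AN6693 was lower in BglC than in AbfA by a log2 difference of −2.52 ± 0.39 (SE, limma adjusted p = 4.8e-05), with 6 of 6 libraries of BglC below the 6 of AbfA. The difference of 1542 from AbfA, 0.21 ± 0.39, did not pass (limma adjusted p = 0.78). AN8777 was higher in 1542 than in BglC by 2.23 ± 0.18 (limma adjusted p = 4.2e-08). For aspf34 the order was BglC, 1542 and AbfA. BglC stood above AbfA by 1.96 ± 0.15 (limma adjusted p = 2.6e-08) and above 1542, whose difference from BglC was −1.18 ± 0.15 (limma adjusted p = 4.4e-06). Strain 1542 stood above AbfA by 0.78 ± 0.15 (limma adjusted p = 0.0019).

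The other members higher in BglC than in AbfA were AN11081, AN1239 and AN6833, the last with group means of 0.196 to 0.936 FPKM in these strains. AN6833 passed the filter through the A773 8 h libraries alone. It rested on 2 to 19 reads per library in BglC and 1 to 5 in AbfA. AN11081 stood 1.08 ± 0.23 above AbfA (limma adjusted p = 0.00092), with 10.2 to 17.6 FPKM in BglC and 3.28 to 12.1 FPKM in AbfA, so the libraries overlapped. AN1239 stood 0.53 ± 0.15 above it (limma adjusted p = 0.0074), with the BglC libraries at 4.91 to 6.73 FPKM and those of AbfA at 2.24 to 4.42 FPKM, without overlap. AN1615 was the other way, at −2.42 ± 0.24 (limma adjusted p = 4.6e-07), with means of 27.1 ± 7.16 and 20.2 ± 3.01 FPKM in AbfA and 3.02 ± 1.53 and 4.44 ± 1.57 FPKM in BglC (SD, n = 3). AN0011 was lower in 1542 than in BglC, at −1.38 ± 0.19 (limma adjusted p = 1e-05). gmdB was lower in BglC than in AbfA, at −1.2015 ± 0.16 (limma adjusted p = 1.2e-05), and gliT likewise, at −0.83 ± 0.18 (limma adjusted p = 0.0013). For tpcA none of the 3 comparisons passed, with differences from −0.67 to −0.28 ± 0.31.

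Some members called between 1542 and AbfA had 1 library far above its group, and not all of these calls held without it. AN7215 was lower in 1542 by a log2 difference of −1.61 ± 0.38 (SE, limma adjusted p = 0.0081). In AbfA its 2 h libraries held 53.2, 9.22 and 7.28 FPKM and those at 8 h 15.9, 25.9 and 13.6 FPKM, while 1542 held 3.45 to 8.73 FPKM. AN8153 was lower at −1.41 ± 0.29 (limma adjusted p = 0.0032), with 11.4, 1.97 and 1.95 FPKM in AbfA at 2 h and at most 1.32 FPKM in 1542. AN7087 was lower at −1.25 ± 0.39 (limma adjusted p = 0.041), with 59.6, 11.3 and 8.82 FPKM in AbfA at 2 h. Without AbfA 2 h replicate 1 the difference of AN7087 was −0.84 and its call ended (limma adjusted p = 0.083), while those of AN7215 (−1.18) and AN8153 (−1.06) passed. The call of AN7087 also ended without any of 7 other single libraries of these strains (limma adjusted p from 0.064 to 0.094). AN11985 was higher in 1542 by 1.1034 ± 0.29 (limma adjusted p = 0.017), with 163, 107 and 351 FPKM at 2 h. Without 1542 2 h replicate 3 that call ended too (limma adjusted p = 0.052).

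Against A773, the averaged level is not free of the choice, since a rise in A773 from a shared early level raises the parental average by itself. These counts are therefore a description. AbfA was called in 34 members, against 39.7% of all genes tested. It was lower in 24 (20.3% of all genes tested) and higher in 10 (19.5%). BglC was called in 55 (40.6%), lower in 50 (29.7%) and higher in 5 (10.9%). Strain 1542 was called in 56 (38.2%), lower in 43 (20.8%) and higher in 13 (17.4%). The 7 members that passed the filter through A773 at 8 h alone make up 6 of the calls for AbfA, 4 for BglC and 7 for 1542, all lower, and without them the lower calls were 18, 46 and 36. Without A773 2 h replicate 1 the split for AbfA was 20 lower and 17 higher, and without A773 8 h replicate 1 it was 16 lower and 11 higher. The median over all genes tested for BglC was −0.14, a shift that median-of-ratios scaling brought to −0.03. With that scaling the members were lower in 42 and higher in 6 for BglC, and the higher share of all calls moved from 26.9% to 49.1%. With voom on recovered reads the split was 13 lower and 10 higher for AbfA and 25 lower and 13 higher for 1542. In all 3 strains 16 members were lower (5.88% of all genes tested) and 2, AN0011 and AN7273, were higher (2.43%). The 16 include AN6446, AN5426, AN5465 and AN5501, which passed the filter through A773 at 8 h alone. The averaged differences of AN2573 were −2.08 in AbfA, −2.40 in BglC and −2.46 in 1542, and those of AN0011 were 2.27, 2.62 and 1.24 (SE 0.20 and 0.19). AN3641 stood 1.26 ± 0.35 above A773 in 1542, and AN9011 at −1.39 ± 0.18.

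Single libraries stood apart for some members. AbfA 2 h replicate 1, the deepest library, lay at least 1 above both other libraries of its group on the log2 scale for 13 members (12.5%), against 1.90% of the genes tested. These were AN7215, AN3218, AN7087, AN8095, AN0815, AN8518, AN5315, AN8153, AN8489, AN7174, AN8391, AN3241 and AN7153. The same library lay as far below both others for 5 members (4.81%), against 3.96% of the genes tested. BglC 2 h replicate 1 lay as far below its group for 10 members (9.62%), against 1.54%. A high 2 h library lowers the change of its strain and can bring a gene into the set. Without AbfA 2 h replicate 1, 9 of the 104 left the set, and 6 of the 9 were among those 13. Without BglC 2 h replicate 2, 27 left. Of the 104, 39 met the rule with each of the 24 libraries left out in turn, among them AN9315, AN5831, gmdB, AN3970, gliT, AN7273 and all 4 genes of the tpcA run. The other 65 include 17 that were lost in 1 such setting and 48 that were lost in at least 2.

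The edges of the set were not marked by a gap. The members nearest to the limit of 1.2 in A773 were AN10218 (1.2301), AN2977 (1.22) and AN5501 (1.21), and the genes just outside it were AN7008 (1.1996), rex3 (1.1977) and AN3490 (1.1928). Near the limit of 0.5 in the recombinant strains, AN10699 (0.4956), AN5945 (0.4934) and AN7913 (0.492) were kept. AN5175 (0.5001), AN7995 (0.5046) and AN6445 (0.5051) were not. Between 1.2 and 1.3 in A773 lay 16 members, and 37 genes under the limit of 0.5 in each recombinant strain lay between 1.1 and 1.2.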

How the data were processed

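The authors deposited 1 table of FPKM values for 10631 genes in 24 libraries. RNA with an integrity number of at least 8 was sequenced from TruSeq Stranded mRNA libraries, per the labels' protocols. Tools named, per the submitters' processing notes, are HTSeq 0.6.0, SAMtools 0.1.18, DESeq2, FastQC and bcl2fastq 1.8.4, without saying what each was used for. Not given in the sources used here: aligner, genome build, use of strand in counting. Hence reads of overlapping, antisense or near-identical genes may not be separated. Whole reads were recovered from the FPKM steps for 10631 of 10631 genes (100.0%, within a tolerance of 0.0001). Of 8343 genes with at least 1000 reads, 8322 had lengths divisible by 3, and lengths are therefore called coding lengths.

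The genes with at least 1 FPKM in at least 3 libraries (9201) were fitted in limma 3.58.1 (R 4.3.3) on log2(FPKM + 1), with 8 group means, empirical Bayes moderation with a trend, and Benjamini-Hochberg adjustment within each comparison. All adjusted p are from this two-sided test, and the SE rests on 1 spread per gene over all 24 libraries, which understates it where libraries of a group differ widely. A fold change on this scale understates that of low genes. The fit was also run on simulated reads with the same spread for every gene and no outlying library. That run does not cover libraries that stood apart, as some did here. For gene names and order, 9938 IDs matched the RefSeq gene table of assembly ASM1142v1, 778 of them with a symbol. Members of the set, gene lists and tests were chosen with earlier results of these data known, and list entries were written from general knowledge and not checked against an annotation. Genes named are the 12 with the largest A773 change, the 6 most abundant in A773 at 8 h, those with a symbol or in a list, those nearest each limit, the 3 called members with the largest difference each way in each averaged comparison, and the 3 longest runs of at least 3 members (1 was found). Others named were chosen after their values were seen. Alternatives covered the pseudocount, the filter, scaling, the libraries fitted, the thresholds, voom, a replicate block and each library left out, and, added after the data were seen, averaging both times per strain and number.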

Additional observations from a re-analysis of the deposited data

How the results depend on the processing

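The number of members depended on the rule's settings. It was 104 as reported, and 173 with a pseudocount of 0.1, of which 77 were shared with the 104. It was 183 with limits of 1 and 0.5, 62 with 1.5 and 0.5, and 51 with 1.2 and 0.3. A pseudocount of 5 gave 76 and median-of-ratios scaling 93, of which 83 were shared. With 1 library left out, the number of members ran from 79 (without BglC 2 h replicate 2) to 149 (without A773 2 h replicate 1). The counts of members called in the averaged comparisons stayed within 1.5 times the reported totals in all settings run, but with a filter of at least 5 FPKM the lower calls of AbfA against A773 went from 24 to 13. With 1 library left out they ran from 43 to 59 for BglC minus AbfA, 19 to 32 for 1542 minus AbfA, 39 to 54 for 1542 minus BglC, 27 to 38 for AbfA minus A773, 49 to 61 for BglC minus A773 and 42 to 61 for 1542 minus A773. Voom on the recovered reads used median-of-ratios scaling in place of the TMM scaling planned. Of 1188 checks of named genes over 36 pairs of gene and comparison, 1176 kept their call and direction, 12 lost the call (11 for AN7087 and 1 for AN11985, both in 1542 minus AbfA) and 0 turned direction. The call of AN7087 also ended with voom (limma adjusted p = 0.1), with no filter (limma adjusted p = 0.05) and with the 12 libraries of its strains alone (limma adjusted p = 0.059).

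Replicate numbers did not pair the samples across strains. Of 84 correlations of deviations between libraries with the same number, 20 were over 0.1, from −0.35 to 0.59, with a median of −0.02. In BglC alone every number correlated between 2 h and 8 h, at 0.59, 0.15 and 0.33. A fit chosen after seeing this averaged both times per strain and number before testing, as a replicate block within strains. It called 51 members for BglC minus AbfA, 25 for 1542 minus AbfA, 44 for 1542 minus BglC, 32 for AbfA minus A773, 54 for BglC minus A773 and 50 for 1542 minus A773. With the replicate number as a block, the calls among members were 55 for BglC minus AbfA, 28 for 1542 minus AbfA, 50 for 1542 minus BglC, 35 for AbfA minus A773, 55 for BglC minus A773 and 55 for 1542 minus A773. Low members are limited by depth, since 1 read in 1 kb stood for up to 0.14 FPKM in the shallowest library.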
